A study of Mus musculus with 14 samples.

Results

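The fusion regions described here are the CAST-Seq regions that the deposited annotation placed at a promoter, an exon, a 5′ UTR or a 3′ UTR. They were all rows of the 3 deposited tables of regions with a chromosome, other than introns, distal intergenic regions, the window around the Hao1 target on chromosome 2 and a window around a recurrent region on chromosome 8. The rule gave 128 of 730 regions: 30 of 168 with SaCas9g1+g2, 90 of 496 with SaCas9g2 and 8 of 66 with SaCas9g1. They are called gene-feature regions below, and the 265 intron and 324 distal intergenic regions outside the windows are what they were set against.

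CAST-Seq starts from a bait primer beside a nuclease target and reads the sequences that became fused to the cut end. Mouse embryonic fibroblasts (MEFs) of CF-1 mice received 3 µg of SaCas9, the nuclease of Staphylococcus aureus, as a complex with 72 pmol of guide RNA: both guides in SaCas9g1+g2 (4 libraries), guide g2 in SaCas9g2 (4 libraries) or guide g1 in SaCas9g1 (2 libraries). All groups share the cell stock, the target gene Hao1, which codes for glycolate oxidase of the liver, and the harvest on day 6; the labels also list 4 untreated libraries, which are not analysed here. The first PCR annealed at 61 °C for SaCas9g1+g2 and SaCas9g1 and at 63 °C for SaCas9g2, so the guide and the PCR setting cannot be told apart in comparisons with SaCas9g2.

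Libraries carry the names of the table headers here, shortened: A-MEF, B-MEF, old-MEF and Hao1-B with SaCas9g1+g2, A-MEF, B-MEF, Hao1-A and Hao1-B with SaCas9g2, and B-MEF and Hao1-B with SaCas9g1. The names carry no replicate number. The libraries came from 3 cultures with SaCas9g1+g2, 2 with SaCas9g2 and 1 with SaCas9g1, and the others are technical repeats of these, which the names do not tell apart. The p-values therefore measure only the spread between libraries, and the spread between cultures of SaCas9g1 is unknown. Over cultures, the smallest p would be 0.200 for SaCas9g1+g2 against SaCas9g2, 0.5 for SaCas9g1+g2 against SaCas9g1 and 0.667 for SaCas9g2 against SaCas9g1. A library held 459219 to 1716787 reads over all regions, of which 380739 to 1055632 were on-target. A hit is a distinct fusion, while reads also carry PCR amplification. Hits are given by library for the regions in the authors' table of called sites and as a treatment total for the others. Each treatment has its own list of regions, so reads at a locus without a listed region in a treatment are not known.

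A cut end can be joined to any other free end in the nucleus. The partner can be a second site that the guide matches, a stretch that shares sequence with the target, or a break that arose without the nuclease. The authors gave these kinds the labels OMT (mediated by an off-target cut), HMT (mediated by homology) and NBS (natural break site). A promoter is the stretch around a transcription start site, here up to 3 kb from it. Exons hold the parts of a gene that are kept in the RNA, and the UTRs are the exon parts outside the coding sequence.

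The guide alignments of the gene-feature regions show how far the regions are from a target, and the best of them are printed with the guides. In each line, capitals mark bases identical to the guide, lower-case letters mark other bases, and the last bases in lower case are the protospacer adjacent motif (PAM). Guide bases that are missing from a site are left out of its line. Positions are those of GRCm38 (mm10).
Guide g1 at Hao1, chr2:134548261-134548287, plus strand: TCCGTGGATAGAGCTTCCATCtggaat
Guide g2 at Hao1, chr2:134548206-134548232, minus strand: GTCAACTTCTGTTTTAGGACAgagagt
Dock3, SaCas9g2, guide g2, chr9:106964627-106964653, minus strand: GTCAtagACTTCTTTcTAGCAgagggt
Gmds, SaCas9g2, guide g2, chr13:32157449-32157476, minus strand: tTCAtCTTCaTGTTTTAGaAgtgtcatt
Ccdc81, SaCas9g2, guide g2, chr7:89877437-89877462, plus strand: aTCAACTcTCTGTTTTGtCtttgctt
Sel1l2, SaCas9g1+g2, guide g2, chr2:140262536-140262560, minus strand: caCAACTgCTGcTTTGGtCAgagct
Paip1, SaCas9g1, guide g1, chr13:119438365-119438389, minus strand: gCCaTaagTAcAGCTTCCATagact

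No gene-feature region came near a full match. The deposited alignment score was 22 at both targets and at most 8 in these regions, with a median of 3 for the better guide of each region. The medians of the intron and distal intergenic regions were also 3, and their highest scores were 10 and 9. Outside the PAM, the closest sites differed from the guide by 6 bases with SaCas9g1+g2, 6 with SaCas9g2 and 7 with SaCas9g1, with missing and extra bases counted. All positions of the PAM were matched at 21 of 90 sites with SaCas9g2 and at 1 of 8 with SaCas9g1. With SaCas9g1+g2, they were matched at 10 of 30 sites for guide g2 and at 6 of 30 for guide g1.

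The region at Dock3, a guanine nucleotide exchange factor of neurons, was the only gene-feature region of 128 that the authors classed as OMT. They gave this class to 4 of 265 intron regions and 4 of 324 distal intergenic regions. The Dock3 site for guide g2 had the highest score of the gene-feature regions, 8, with the substitution T14C (the guide's base, its position from the guide's 5′ end, the site's base). It had 3 missing and 3 extra bases, and a full PAM. It lies in exon 27 of 53 of Dock3, inside the coding sequence. The region had 4 hits with SaCas9g2, with 7417 reads in Hao1-A, 1 read in Hao1-B and none in A-MEF and B-MEF. It was not in the authors' table of called sites and was absent from the tables of the other treatments.

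Gmds, which codes for an enzyme of GDP-fucose synthesis, and Ccdc81, a coiled-coil gene, had the next highest scores, 7 each. The Gmds region had 4 hits and 1063 reads, all in A-MEF of SaCas9g2. The Ccdc81 region, in the 3′ UTR, had 2 hits, with 3176 reads in A-MEF and 1 read in B-MEF of SaCas9g2. Neither was called. With SaCas9g1+g2, the highest score was 6, at BC039771, Sel1l2, Mir3084-2 and Anks1. With SaCas9g1, it was 5.5 at Paip1, a binding partner of the poly(A)-binding protein, whose 5 hits and 831 reads were all in Hao1-B.

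Many hits at gene-feature regions lay in repeated sequence, which the next sequences show. The search for it was made after the values had been seen. The first pair is the guide g2 alignment in a region on chromosome 14 and in a region at the start of chromosome 9, the second pair the guide g1 alignment in a region on chromosome 2 and in another on chromosome 9. The last line is the 30 bases with the most TTAGGG units, the telomere repeat, in the region at Ttll10. In that line, capitals mark the units.
Gm5458, SaCas9g2, chr14:19417588-19417608, plus strand: GTCcACTGTAGGACAtggaat
Mir101c, SaCas9g2, chr9:3000521-3000541, minus strand: GTCcACTGTAGGACAtggaat
Lrrc4c, SaCas9g1+g2, chr2:98662436-98662461, plus strand: TCCGTGatTttcAGtTTtCTCgccat
Mir101c, SaCas9g1, chr9:3025547-3025572, plus strand: TCCGTGatTttcAGtTTtCTCgccat
Ttll10, SaCas9g2, chr4:156035265-156035294, plus strand: tgagggtgagggTTAGGGTTAGGGTTAGGG

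The lines of each of the first pairs are the same, although the regions lie on different chromosomes. The chromosome 9 region of SaCas9g2 was 84.0% identical to itself when shifted by 234 bp, which is the unit of the mouse major satellite, the repeat of the pericentromeres. Words of 20 bases from this region, on either strand, covered 72.6% of the Gm5458 region with SaCas9g1+g2 and 64.4% of it with SaCas9g2. They covered 23.8% of the Lrrc4c region on chromosome 2 with SaCas9g1+g2, 23.8% of it with SaCas9g2, and 25.7% and 31.6% of its 2 pieces with SaCas9g1. At the best shift, self-identity of the Gm5458 region was 59.3% (351 bp) with SaCas9g1+g2 and 54.2% (58 bp) with SaCas9g2. For the chromosome 2 locus it was 34.4% (58 bp) with either, and 36.9% (234 bp) for the larger SaCas9g1 piece. That locus is called a satellite below for the shared words alone. Together 8 of 128 gene-feature regions held such words, against 1 of 265 intron and 1 of 324 distal intergenic regions. The words came from a gene-feature region, which is itself among the 8, and a locus was counted again in each treatment. These counts therefore do not compare the kinds of region evenly. The deposited names are those of the nearest genes, and Lrrc4c starts 2343883 bp from the chromosome 2 locus. There GENCODE has exons of the gene models Gm10800 and Gm10801.

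The Rn45s region spans 4930 bp of chromosome 17 from the start of the 45S pre-ribosomal RNA, the precursor of most ribosomal RNA. Its 20-base words were found in no other region outside the windows than the Rn45s regions of SaCas9g1+g2 and SaCas9g2. TTAGGG, searched on both strands and with a length of 6, occurred at least once in 22.7% of gene-feature regions, 18.9% of intron regions and 24.4% of distal intergenic regions. The Phf21a region held 24 of these units and the Ttll10 region 6, and no other gene-feature region held 3 or more.

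Regions with satellite words, Rn45s words or at least 3 TTAGGG units made up 13 of 128 gene-feature regions and held 47.3% of their hits. By treatment, they held 150 of 297 hits with SaCas9g1+g2 (50.5%), 236 of 591 with SaCas9g2 (39.9%) and 76 of 89 with SaCas9g1 (85.4%). Their shares of the reads at gene-feature regions were lower, 8.35%, 8.26% and 45.0% in the same order. In intron regions the 3 repeats held 6.15% of the hits and in distal intergenic regions 22.1%, nearly all of the last at TTAGGG units. The satellite and Rn45s words were taken from gene-feature regions, so these shares do not compare the kinds of region evenly. A read from a repeat can match many copies, so the locus named for it may not be the copy that was fused. How such reads were placed is not given in the sources used here, and whether another copy was fused was not tested.

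**Figure D1:**
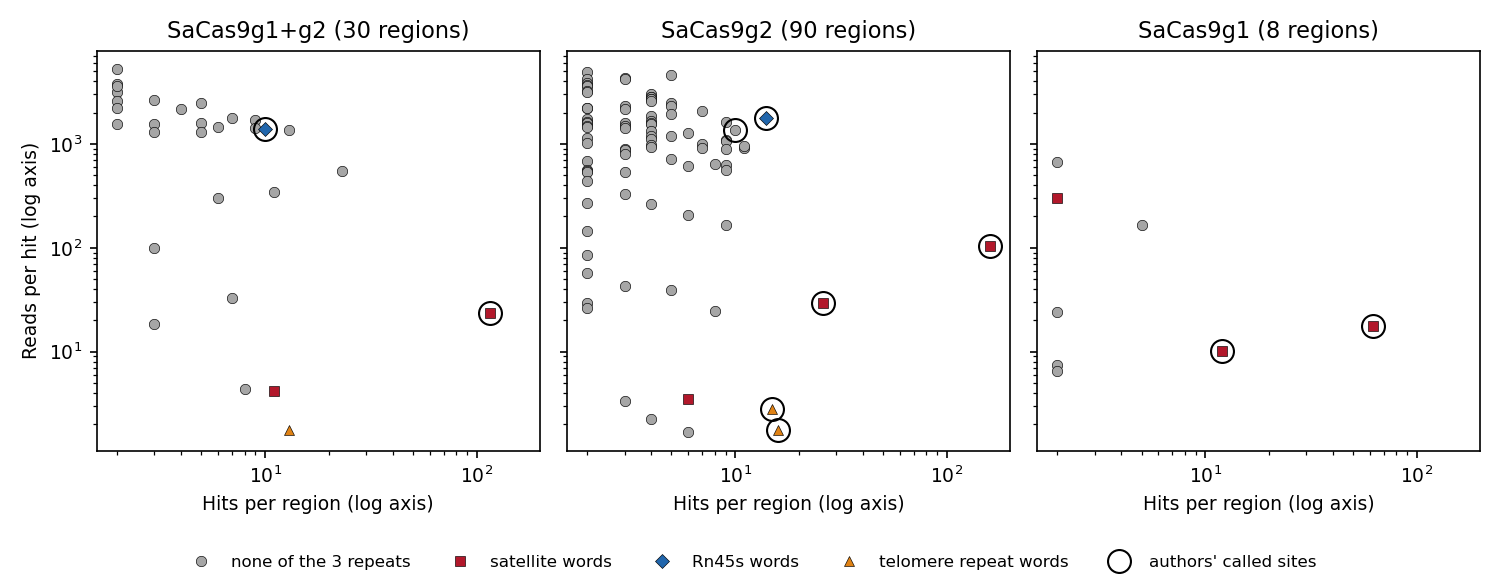
Hits per region (x, log axis) against reads per hit (y, log axis) of the 128 promoter, exon and UTR regions, a panel for each treatment. Colours and shapes mark the repeats that a region holds and open circles the regions in the authors' table of called sites. Most repeat regions other than Rn45s lie low on the right, at up to 159 hits, while the Mir101c regions have 6 hits with SaCas9g2 and, at 302 reads per hit, 2 hits with SaCas9g1. Regions without any of these repeats lie at 2 to 23 hits, most of them with over 1000 reads per hit in SaCas9g1+g2.

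The authors' table of called sites held few gene-feature regions, and nearly all of those carried 1 of the 3 repeats above. Called were 2 of 30 with SaCas9g1+g2, 6 of 90 with SaCas9g2 and 2 of 8 with SaCas9g1. Over all regions of a table, 6.55% were called with SaCas9g1+g2, 6.05% with SaCas9g2 and 7.58% with SaCas9g1, and outside the windows 4.32%, 5.49% and 3.17%. The counts of called gene-feature regions are too small to set their shares apart from these. Of the 10 called regions, 9 carried satellite words, Rn45s words or TTAGGG units, and the other was Kif26b. Of the 118 regions that were not called, 4 carried any of the 3. Among called intron regions, 4 of 8 carried any of the 3, and among called distal intergenic regions 7 of 18. Rn45s, a source of the words, was itself called, so part of the 9 follows from how the repeats were defined. The 9 are also not separate loci. The chromosome 2 satellite, in 2 pieces with SaCas9g1, and Rn45s were called in more than 1 treatment and counted each time. A call needs 2 libraries, so a region that is read in a single library cannot be called.

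No gene-feature locus other than the chromosome 2 satellite was listed in all 3 treatments. The satellite had the most hits in each treatment and reads in all 10 libraries. It had 20, 44, 45 and 7 hits in A-MEF, B-MEF, old-MEF and Hao1-B of SaCas9g1+g2. With SaCas9g2 it had 47, 44, 20 and 48 hits in A-MEF, B-MEF, Hao1-A and Hao1-B. Its 2 pieces with SaCas9g1 had 48 and 11 hits in B-MEF and 14 and 1 hits in Hao1-B. The libraries overlapped between all treatments. The sums were 116, 159 and 74 hits with SaCas9g1+g2, SaCas9g2 and SaCas9g1, which is 39.1%, 26.9% and 83.1% of the hits at gene-feature regions. The locus was called in all 3 treatments, in 2 of 4 libraries with SaCas9g1+g2, 4 of 4 with SaCas9g2 and 2 of 2 with SaCas9g1.

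Gm5458, the satellite region of chromosome 14, was read in all 8 libraries of SaCas9g1+g2 and SaCas9g2 and had no region listed with SaCas9g1. It had 11 hits with SaCas9g1+g2 and 26 with SaCas9g2, and was called with SaCas9g2 alone, where its libraries held 8, 6, 5 and 7 hits. By reads, it had 1, 4, 1 and 40 in the libraries of SaCas9g1+g2, against 18, 9, 718 and 26 in those of SaCas9g2, in the order of the names above. Hao1-B of SaCas9g1+g2 lay within the range of the SaCas9g2 libraries and the other SaCas9g1+g2 libraries below it. Rn45s had 4, 2, 3 and 1 hits with SaCas9g1+g2, against 7, 2, 2 and 3 hits with SaCas9g2, and was called in both. The ranges of Rn45s overlapped, and its reads were uneven: 891, 2, 12917 and 1 with SaCas9g1+g2, against 15230, 2, 6845 and 2713 with SaCas9g2.

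The telomere-type regions were read in many libraries but had few reads. Ttll10, which codes for an enzyme that adds glycine chains to proteins, had 13 hits with SaCas9g1+g2, with 1, 2, 6 and 14 reads in its libraries, against 15 hits with SaCas9g2, with 10, 1, 22 and 9 reads. The ranges overlapped. The region lies in the last exon, 15 of 15, and was called with SaCas9g2 alone. Phf21a, which codes for a chromatin reader of unmodified histone H3, had 5, 2, 4 and 5 hits with SaCas9g2, 28 reads in all, and no region in the other tables. It was called and lies at the promoter. Both regions were thus spread over all 4 libraries of SaCas9g2, with under 3 reads per hit.

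Kif26b, a gene of the kinesin family, was the only called gene-feature region without any of these repeats. It had 2 hits with 6689 reads in A-MEF and 8 hits with 6883 reads in Hao1-A of SaCas9g2, and none in B-MEF and Hao1-B. The region lies in exon 12 of 15, in the coding sequence. Its guide g2 alignment had a score of 0.5, so it was among the poorer matches. The authors classed it as NBS, as they did every called gene-feature region.

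Gene-feature regions without any of these repeats were mostly read in 1 library. Of all 128 regions, with or without repeats, 64 were read in 1 library, 49 in 2, 6 in 3 and 9 in 4. In 112 (87.5%) a single library held at least 99% of the reads, as the 64 must. Intron and distal intergenic regions were read in 1 library more often, in 68.7% and 65.7% of cases. The gene-feature regions read in 1 library had a median of 3 hits and 3755.5 reads, and those read in 2 had 4 hits and 6265 reads. Those read in 3 had a median of 8 hits and 12555 reads, and those read in 4 had 15 hits and 771 reads. The region with the most reads, Rn45s with SaCas9g2 (24790), had 61.4% of them in its top library. Most gene-feature regions, though, had nearly all of their reads in a single library.

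The pattern was plain at the promoter regions of SaCas9g1+g2. Mir7214, a microRNA gene, had the most hits there, 23, with 2, 12622, 3 and 0 reads in A-MEF, B-MEF, old-MEF and Hao1-B. Cep164, a gene of the distal appendages of centrioles, had 13 hits, with 1, 2, 17719 and 0 reads in the same libraries. Olfr1121, an odorant receptor gene, had 11 hits and 3761 reads, all in B-MEF. The same held for the single 5′ UTR region, named Mir3084-2 after a gene 31412258 bp away and lying in Plgrkt by GENCODE, with 6 hits and 1792 reads, all in B-MEF. The 3′ UTR region with the most hits, Coq4, a gene of coenzyme Q synthesis, had 3 hits, with 54 reads in A-MEF and 1 in old-MEF.

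With SaCas9g2, the leading UTR regions were equally uneven. At the 3′ UTR region of Airn, an RNA that silences its imprinted neighbours, A-MEF held 10569 of 10570 reads, over 11 hits; by GENCODE the exon there is that of Mas1. At the 5′ UTR region of Il16, a cytokine gene, Hao1-B held 8017 of 8018 reads, over 9 hits. In both, the remaining read was in the library whose name has the same style.

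That link between names held more widely. Of the 72 SaCas9g2 gene-feature regions with at least 1000 reads, 36 (50%) were also read in the library of the same name style as the one that held the most reads, and 5 (6.94%) in a library of the other style. In introns and distal intergenic regions of SaCas9g2, the shares were 34.8% and 4.14% of 290 regions. The headers do not say what the name styles stand for, and their part in the counts was not tested.

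The authors classed 2 gene-feature regions as HMT, both in a 3′ UTR and neither called, beside 4 of 265 intron and 2 of 324 distal intergenic regions. Nlrc4, an inflammasome gene, had 2 hits, with 1 read in B-MEF and 6264 reads in old-MEF of SaCas9g1+g2. Gpnmb, a transmembrane glycoprotein gene, had 11 hits, with 10054 reads in Hao1-A and 1 read in Hao1-B of SaCas9g2. The stretch that the tables give as shared with the target was 25 nt long for Nlrc4 and 26 nt for Gpnmb, and a run of 25 T made up all of the first and all but 1 base of the second. Shared stretches of at least 20 nt were found in 4 of 128 gene-feature regions, 12 of 265 intron regions and 9 of 324 distal intergenic regions.

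**Figure D2:**
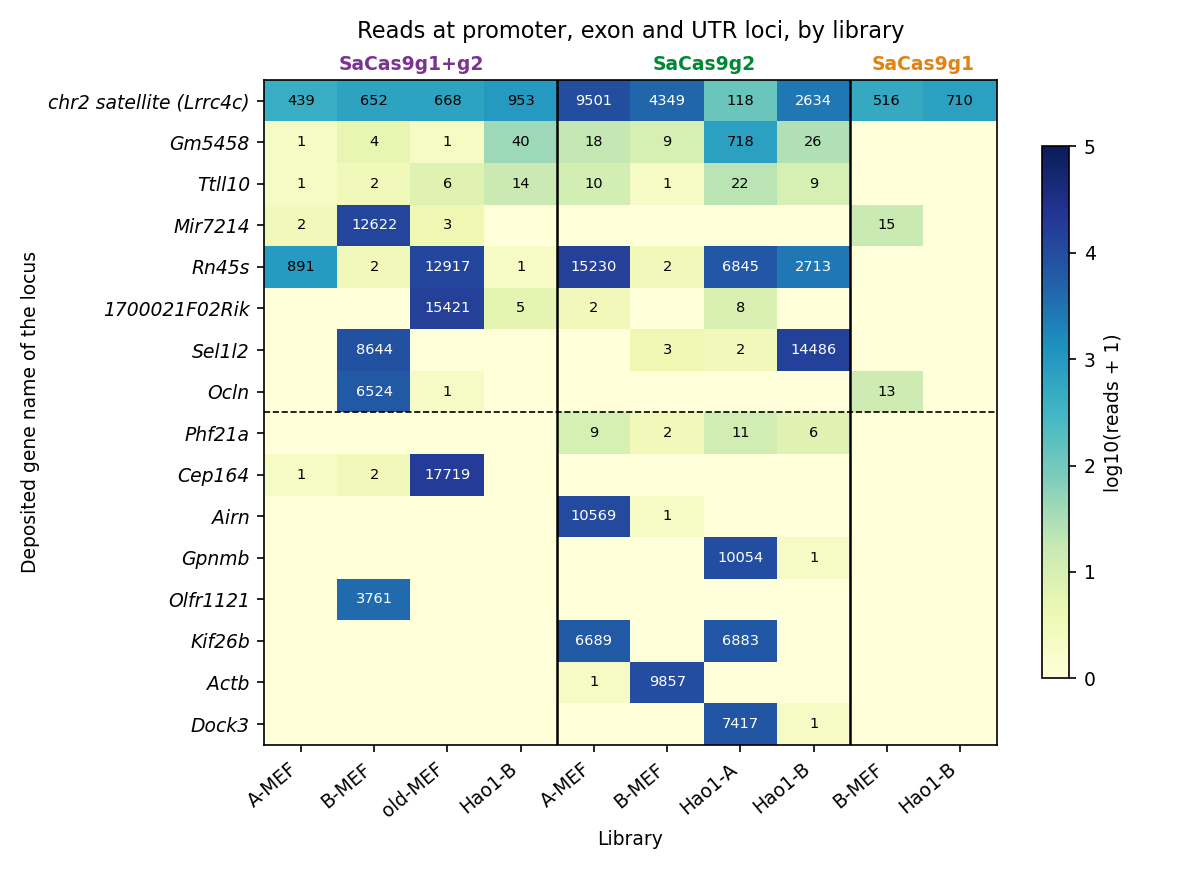
Reads (numbers and colour, log10 of reads + 1) at the 8 loci found in more than 1 treatment, above the dashed line, and at 8 other named loci, below it, in each of the 10 libraries. Empty cells mean no read in the library or no region of the locus listed for that treatment. The 2 pieces of the chromosome 2 satellite with SaCas9g1 are summed. The satellite has 118 to 9501 reads in every library, and most loci below the line have nearly all of their reads in 1 library.

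Of the gene-feature loci, 8 recurred between treatments. Joined by an overlap of at least 1 bp, the 128 regions formed 118 loci, of which 8 were found in more than 1 treatment and 1, the chromosome 2 satellite, in all 3. The shared regions were 8 of 30 (26.7%) with SaCas9g1+g2, 6 of 90 (6.67%) with SaCas9g2 and 4 of 8 (50%) with SaCas9g1. Among intron regions, the shares that overlapped a region of another treatment outside the windows were 7.55%, 1.62% and 7.41% in the same order, and among distal intergenic regions 6.33%, 3.69% and 14.3%. The shares of the gene-feature regions were above both in each treatment, with no test, and the pieces of the chromosome 2 satellite are among them. With Gm5458, Ttll10 and Rn45s, which also carry repeats counted above, that satellite makes up most of the shared SaCas9g2 regions. Whether gene-feature regions without these repeats recurred more than the other kinds was not tested. SaCas9g1+g2 and SaCas9g2 shared Gm5458, Ttll10, Rn45s, 1700021F02Rik and Sel1l2, while SaCas9g1+g2 and SaCas9g1 shared Mir7214 and Ocln, the gene of the tight junction protein occludin. No gene-feature locus was shared by SaCas9g2 and SaCas9g1 alone.

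The recurrent loci without any of the 3 repeats had very unequal reads. Other repeats were not counted here: 66.9% of the 1700021F02Rik region was masked in the reference with SaCas9g1+g2 and 64.1% with SaCas9g2. The 1700021F02Rik promoter region had 15421 of 15426 reads in old-MEF of SaCas9g1+g2, against 10 reads in all with SaCas9g2. Sel1l2, a relative of the Sel1l gene of protein quality control, was read deeply in both: 6 hits with 8644 reads, all in B-MEF of SaCas9g1+g2, against 7 hits with 14491 reads with SaCas9g2, of which 14486 were in Hao1-B. The Sel1l2 regions lie in exon 10 of 20 and 5.71 Mb from the target on the same chromosome. Mir7214 and Ocln had 2 hits each with SaCas9g1, with 15 and 13 reads, all in B-MEF, the library name that also held most of their reads with SaCas9g1+g2. Reads of 1 locus in like-named libraries of different treatments were not tested for a shared origin.

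Few regions lay at genes of the chosen lists. Those of a list of 30 fibroblast genes were all with SaCas9g2, which holds 90 of the 128 regions, among them Actb and Col6a1. In intron or distal intergenic regions, 1 gene of this list was a nearest gene. The Actb region, at the promoter of the cytoskeletal actin gene, had 9 hits, with 9857 reads in B-MEF and 1 read in A-MEF. Col6a1, which codes for a chain of collagen VI, had 2 hits, with 1369 reads, all in B-MEF, in its 3′ UTR. A list of 40 cancer genes contributed none, and 2 of them, Cdkn2a and Mycn, were nearest genes of intron or distal intergenic regions. The deposited tables listed an oncogene within 100 kb of 19.5% of gene-feature regions, 14.7% of intron regions and 8.02% of distal intergenic regions.

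Promoters were the most frequent class with SaCas9g1+g2 and exons with SaCas9g2 and SaCas9g1. With SaCas9g1+g2, 18 regions were at promoters, 9 in exons, 1 in a 5′ UTR and 2 in 3′ UTRs. With SaCas9g2, 33 were at promoters, 39 in exons, 1 in a 5′ UTR and 17 in 3′ UTRs, and with SaCas9g1, 3 were at promoters and 5 in exons. The promoter regions with the most hits were Mir7214 with SaCas9g1+g2, Phf21a with SaCas9g2 and, with 2 hits and 1331 reads, Gtpbp6 with SaCas9g1. Of the 54 promoter regions, 36 lay within 1 kb of the start site and 8 overlapped it.

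The promoter share of the gene-feature regions read in a library was 45.5%, 50%, 62.5% and 66.7% in A-MEF, B-MEF, old-MEF and Hao1-B of SaCas9g1+g2. It was 42.5%, 32.4%, 34.2% and 38.7% in A-MEF, B-MEF, Hao1-A and Hao1-B of SaCas9g2, and 40% and 16.7% in B-MEF and Hao1-B of SaCas9g1. Every SaCas9g1+g2 library was above every other library. The means were 56.2% ± 10.1 with SaCas9g1+g2 (SD over 4 libraries of 3 cultures), 37.0% ± 4.54 with SaCas9g2 (SD over 4 libraries of 2 cultures) and 28.3% with SaCas9g1 (2 libraries of 1 culture). The share with SaCas9g1+g2 exceeded that with SaCas9g2 by 19.2 percentage points (exact two-sided permutation test over libraries, p = 0.0286, adjusted 0.0857 by Benjamini-Hochberg over the 3 comparisons; no smaller p can be had from 4 libraries against 4). It exceeded that with SaCas9g1 by 27.8 points (exact permutation test, p = 0.133, adjusted 0.200), and SaCas9g2 exceeded SaCas9g1 by 8.63 points (exact permutation test, p = 0.533). None passed the threshold of 0.05 after adjustment, and with these numbers of libraries none could. The measure was chosen after the class counts had been seen, and it rests on 11 to 20 regions in a SaCas9g1+g2 library and on 5 and 6 in the SaCas9g1 libraries.

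**Figure D3:**
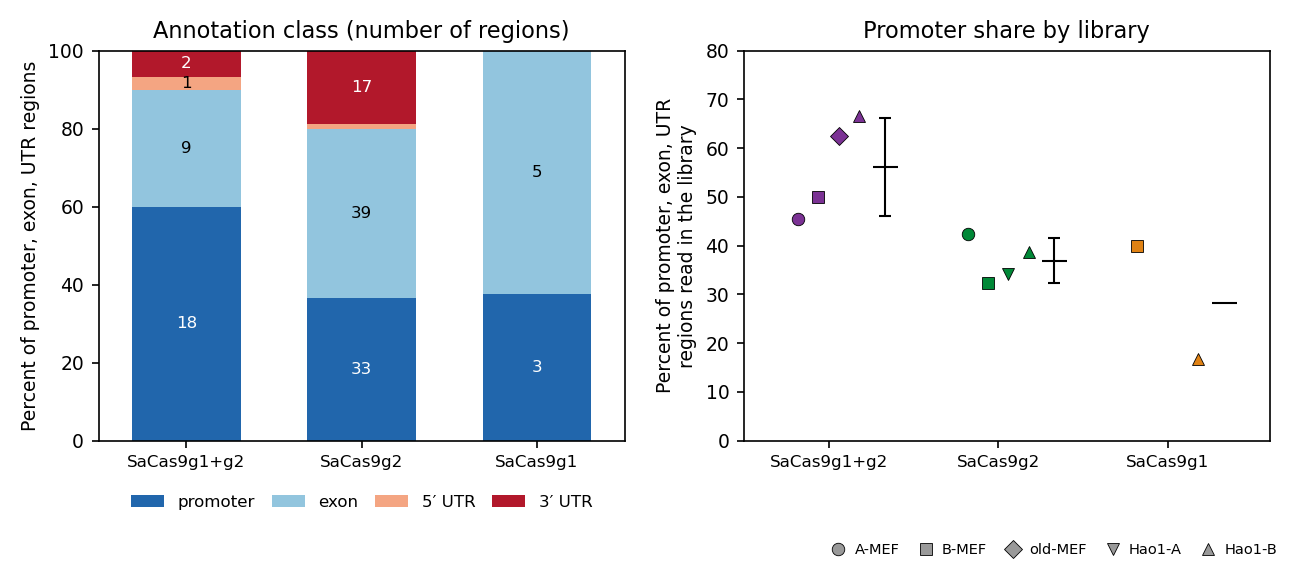
Left, percent of promoter, exon and UTR regions in each annotation class by treatment, with the number of regions in the bars. Right, percent of the regions read in a library that are at promoters, a symbol for each library, with the mean of the libraries at its right and, other than for the single culture of SaCas9g1, their SD. SaCas9g1+g2 libraries run from 45.5% to 66.7% and lie above those of SaCas9g2 and SaCas9g1.

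The amount of signal at each treatment's own gene-feature regions differed between the treatments, with no adjusted p below the threshold. Their share of the fusions outside the windows differed less. Reads were summed over the list of each treatment, 30 regions with SaCas9g1+g2, 90 with SaCas9g2 and 8 with SaCas9g1. A region is on a list through that treatment's own libraries, so the sums and tests do not compare the same regions. Reads at all regions outside the windows ran in the same order, so the order is not particular to gene-feature regions. Summed over libraries, these were 825242 for 2857126 on-target reads with SaCas9g1+g2, 2253665 for 2073928 with SaCas9g2 and 89408 for 1215523 with SaCas9g1. Per 1000 on-target reads, the gene-feature regions had 16.3, 117, 66.2 and 66.7 reads in A-MEF, B-MEF, old-MEF and Hao1-B of SaCas9g1+g2. They had 336, 183, 224 and 240 reads in A-MEF, B-MEF, Hao1-A and Hao1-B of SaCas9g2, and 0.893 and 5.83 reads in B-MEF and Hao1-B of SaCas9g1. No 2 treatments overlapped. With called sites only, SaCas9g1+g2 (1.12 to 12.9) overlapped both SaCas9g2 (11.4 to 63.9) and SaCas9g1 (0.844 to 1.17), and with gene features set by GENCODE, A-MEF of SaCas9g1+g2 (4.17) was below Hao1-B of SaCas9g1 (11.2). With 1 read added to each library, the mean log2 value with SaCas9g1+g2 minus that with SaCas9g2 was −2.15 (exact two-sided permutation test, p = 0.0286, adjusted 0.240 over 9 comparisons). With SaCas9g1+g2 it was higher than with SaCas9g1 by 4.56, and with SaCas9g2 it was higher than with SaCas9g1 by 6.71 (exact permutation tests, p = 0.133 and adjusted 0.240 for both, and p = 0.400 with the SaCas9g1 libraries averaged to 1 sample). The smallest p was 0.0286 for 4 libraries against 4 and 0.133 for 4 against 2, and no adjusted p could fall below 0.0857.

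By hits, the treatments were closer. Summed over libraries, with no test, there were 297 hits at gene-feature regions for 4892 on-target hits with SaCas9g1+g2, 591 for 4071 with SaCas9g2 and 89 for 3221 with SaCas9g1. Per 1000 on-target hits, that is 60.7, 145 and 27.6 hits in the same order. The log2 ratio of these totals was −1.26 for SaCas9g1+g2 over SaCas9g2, 1.14 for SaCas9g1+g2 over SaCas9g1 and 2.39 for SaCas9g2 over SaCas9g1, against −1.83, 4.38 and 6.20 by reads. In the gene-feature regions, the median was 1429 reads per hit with SaCas9g1+g2, 1104 with SaCas9g2 and 20.9 with SaCas9g1.

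As a share of the regions read, gene-feature regions overlapped between treatments, while the SaCas9g1 libraries stood below the others in some alternatives. They were 25.6%, 23.5%, 23.9% and 17.1% of the regions read outside the windows in A-MEF, B-MEF, old-MEF and Hao1-B of SaCas9g1+g2. They were 23.0%, 23.1%, 19.2% and 15.8% in A-MEF, B-MEF, Hao1-A and Hao1-B of SaCas9g2, and 22.7% and 12.8% in B-MEF and Hao1-B of SaCas9g1. The libraries of all treatments overlapped, and the differences were 2.25 percentage points for SaCas9g1+g2 minus SaCas9g2, 4.79 for SaCas9g1+g2 minus SaCas9g1 and 2.53 for SaCas9g2 minus SaCas9g1 (exact permutation tests, p = 0.343, 0.267 and 0.533). Over regions of at least 3 hits, both SaCas9g1 libraries, at 11.8% and 14.3%, were below every other library, and the differences were 3.87, 11.7 and 7.78 points. Without regions that are at least 50% masked, both were again below every other library, at 15.4% and 9.09%, and the differences were 0.433, 11.8 and 11.4 points. Without the chromosome 2 satellite, they were at 15.0% and 8.89%, and the lowest other library, Hao1-B of SaCas9g2, was at 15.4%. In each treatment, every library named Hao1 had a lower share than every library with MEF in its name. Within the MEF-named libraries, the SaCas9g1+g2 mean of 24.3% (n = 3) was 1.27 points above the SaCas9g2 mean of 23.1% (n = 2), and within the Hao1-named libraries, the 17.1% of the SaCas9g1+g2 library stood beside a SaCas9g2 mean of 17.5% (n = 2), a difference of −0.361 points.

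By reads, the share of each SaCas9g1 library was below that of every other library. It was 14.4%, 30.7%, 29.5% and 17.2% of the reads outside the windows in the libraries of SaCas9g1+g2, 25.9%, 23.7%, 22.1% and 19.4% in those of SaCas9g2, and 1.99% and 5.69% in those of SaCas9g1. SaCas9g1+g2 and SaCas9g2 differed by 0.152 points (exact permutation test, p = 1), less than the spread of either. SaCas9g1+g2 was 19.1 points and SaCas9g2 19.0 points above SaCas9g1 (exact permutation tests, p = 0.133 and adjusted 0.240 for both). With gene features set by GENCODE, A-MEF of SaCas9g1+g2 (3.69%) was below Hao1-B of SaCas9g1 (10.9%), and the first difference was 13.0 points (exact permutation test, p = 0.267). The SaCas9g1 libraries had 5 and 6 gene-feature regions each, and 74 of the 89 hits lay in the satellite, where reads per hit were few. By hits summed over libraries, gene-feature regions took 30.3% of the 981 hits outside the windows with SaCas9g1+g2 (95% exact Clopper-Pearson interval 27.4% to 33.3%, which covers counting error only). They took 23.6% of 2507 hits with SaCas9g2 (interval 21.9% to 25.3%), and 27.6% of 322 hits with SaCas9g1 (interval 22.8% to 32.9%). Without the chromosome 2 satellite, they were 20.9%, 18.4% and 6.05%.

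**Figure D4:**
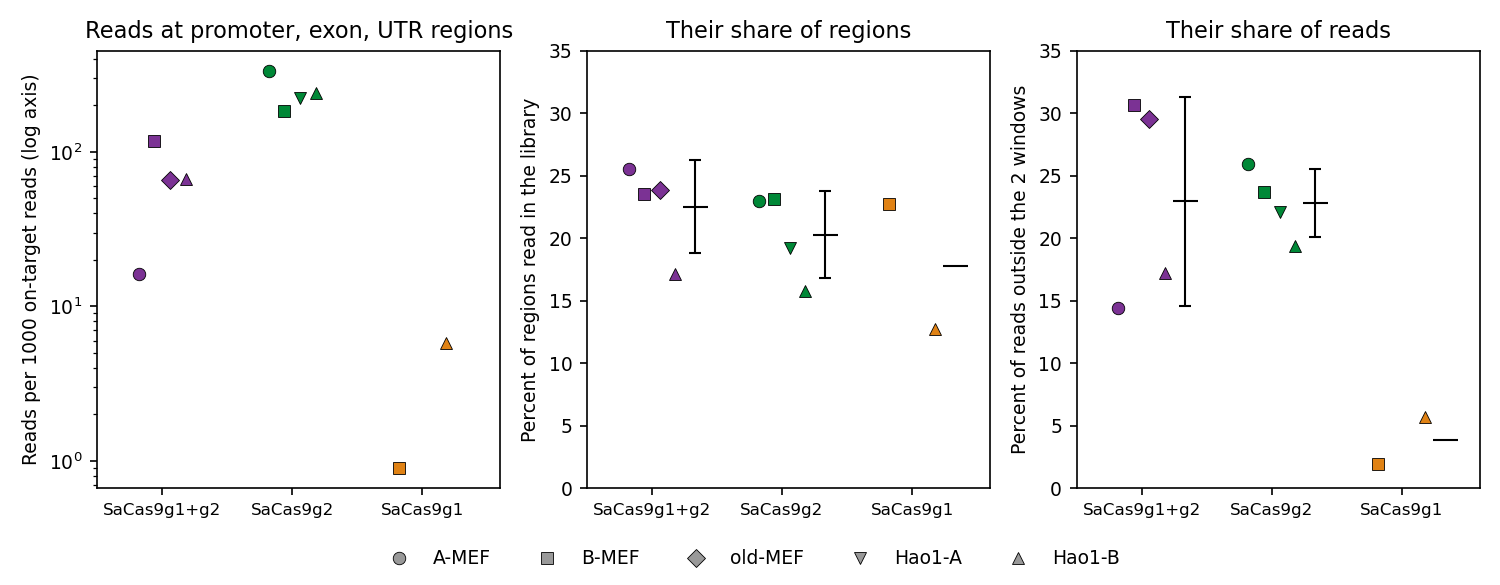
Left, reads at each treatment's own promoter, exon and UTR regions per 1000 on-target reads (log axis); middle, their percent of the regions read outside the windows; right, their percent of the reads outside the windows. Each symbol is a library, and the bars in the last 2 panels are the mean and, other than for the single culture of SaCas9g1, the SD; the treatments are apart in the left panel and overlap in the middle one.

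Gene-feature regions differed from the other regions in base content, as described here with no test, since the annotation chose them. They had a median GC content of 46.6%, against 44.3% in introns and 41.1% in distal intergenic regions, and a median of 14.2% of their bases was masked as repeats in the reference, against 23.8% and 28.3%. Their median hits were 4, against 3 in both other kinds, and their median reads 4463, against 3320 and 2690. They were read in a single library in 50% of cases, against 68.7% and 65.7%. Their median width was 506 bp.

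The deposited gene name was not always the gene at the site. The named gene overlapped the region or lay within 1 kb of it, in GENCODE, for 92 of 128 regions, and 95 overlapped a GENCODE exon of any gene. The chromosome 2 satellite, Mir101c and Mir3084-2 were among those named after another gene.

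On chromosome 2 lay 27 gene-feature regions (21.1%), against 18.5% of intron and 20.4% of distal intergenic regions. Within 10 Mb of the target lay 6 of them, 1 with SaCas9g1+g2 and 5 with SaCas9g2. They were, from near to far, Fermt1 at 1.59 Mb on the side of lower positions, Ism1 at 5.13 Mb and Sel1l2 at 5.71 Mb (in both treatments) on the other side, Bub1 at 6.72 Mb on the lower side and Polr3f at 9.98 Mb on the other. Their hits were 2 to 7 per region. They were named after their distances had been seen, apart from Sel1l2.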

How the data were processed

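The deposited tables hold reads and hits (counts per region and library, not normalized), a guide alignment score and an annotation by nearest gene. The submitters' processing notes name Bowtie2 2.3.4.2 and bedtools 2.27.1 for 150 nt reads, and the positions are those of mm10. The authors called a region against untreated cells; the deposited p-values of these calls and of guide and homology matches were not used, only membership in the table of called sites and the class. Reads per library and hits per treatment came from the table of all regions, and hits per library from the table of called sites; 66 other columns of library values (reads or hits given a second time and p-values) were not used, and 6 blank lines were left out.

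Sequence, GC content and gene models came from GRCm38 and GENCODE. Library values were set against each other in two-sided permutation tests that enumerated every regrouping (exact tests), with Benjamini-Hochberg adjustment over the 9 comparisons of 3 measures at a threshold of 0.05 and a pseudocount of 1 read. The test was checked on simulated data. The genes and lists named were chosen with earlier results of these data known: in each treatment the 5 regions of most hits (ties by reads), the region of most hits in each class, every called, OMT or HMT region, every locus in more than 1 treatment, the highest alignment score, and lists of 30 fibroblast genes, 40 cancer genes and 15 repeat models, of which 3 were nearest genes (Rn45s, Lrrc4c, Gm5458). Gmds, Ccdc81, BC039771, Anks1, the genes near the target on chromosome 2, and the repeat searches were chosen after their values were seen, as were hits in place of reads (treatment totals), leaving out the satellite, MEF-named libraries only, like-named libraries, the SaCas9g1 libraries as 1 sample and the promoter share. Depth, 459219 to 1716787 reads per library, limits the precision of regions with few hits. Sequences were read with pysam 0.24.0, values computed with SciPy 1.17.1 and pandas 2.3.3 (on NumPy 2.4.6 and Python 3.11.15) and figures drawn with Matplotlib 3.10.9. A gene of the fibroblast list and a sequence are not reported here.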

Additional observations from a re-analysis of the deposited data

How the results depend on the processing

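Under the alternatives tried, 160 values kept their direction, 12 changed sign and 3 moved by more than their interval. No adjusted p could pass the threshold in this design, so its side of the threshold says nothing about stability. The share of reads, SaCas9g1+g2 minus SaCas9g2, changed sign to −3.47 points without regions that are at least 50% masked, to −0.0789 without the region of most reads and to −2.89 with members set by GENCODE; with treatment totals of hits in place of reads, SaCas9g2 minus SaCas9g1 was −4.07. Without the chromosome 2 satellite, the shares of hits were 20.9%, 18.4% and 6.05% with SaCas9g1+g2, SaCas9g2 and SaCas9g1. The cause was not tested.

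Leaving out each library in turn, the share of reads ranged from −2.42 to 3.00 points for SaCas9g1+g2 minus SaCas9g2, from 16.5 to 22.0 for SaCas9g1+g2 minus SaCas9g1 and from 17.1 to 20.8 for SaCas9g2 minus SaCas9g1. In the first, the sign turned without B-MEF or old-MEF of SaCas9g1+g2 (−2.42 and −2.04) and without Hao1-A or Hao1-B of SaCas9g2 (−0.0674 and −0.973). The share of regions ranged from 0.765 to 4.05, from −0.194 to 9.77 and from −2.45 to 7.51 in the same order, and the promoter share from 15.7 to 22.8, from 16.2 to 39.5 and from −3.04 to 20.3; the negative ends of these came without Hao1-B of SaCas9g1. The log2 reads per 1000 on-target reads ranged from −2.53 to −1.58, from 3.21 to 5.91 and from 5.36 to 8.07. With the library name as a replicate block, which the headers do not say marks a shared culture, the share of reads for SaCas9g1+g2 minus SaCas9g2 changed sign to −2.26 points. The share of regions, 1.44 points, was positive in all 3 like-named pairs, and the log2 reads, −2.29, negative in all 3 (exact sign-flip permutation tests, p = 0.250 for both, the smallest that 3 pairs allow). The mean like-named differences from SaCas9g1 kept their direction. Loci in more than 1 treatment numbered 8 under each overlap rule, but none was in all 3 where 50% of each region had to overlap. Low hits per region and the single culture of SaCas9g1 limit these values.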
